A study of Homo sapiens with 6 samples.

Results

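The 8 genes described here encode intermediate filament proteins and surface adhesion proteins that are commonly read as epithelial or mesenchymal markers: the keratins KRT8, KRT18, KRT19 and KRT10, vimentin (VIM), E-cadherin (CDH1), N-cadherin (CDH2) and the epithelial cell adhesion molecule EPCAM. They were chosen by symbol, with earlier results of these data known. All 8 were found among the 63677 genes of the count table. All 8 also passed the filter on low counts that left 22331 genes for testing. Poly(A) RNA was sequenced from HEK293, an established human embryonic kidney line that had been transfected with siRNA using Lipofectamine RNAiMAX and lysed in TRIzol after 48 hours. The 6 libraries form 3 groups of 2: a non-targeting control siRNA, an siRNA aimed at the circular RNA circRAB3IP (siRAB3IP) and an siRNA aimed at the circular RNA circCAMSAP1 (siCAMSAP1). All groups received transfection reagent and an siRNA, and the labels name a single siRNA target per knockdown. Poly(A) libraries read linear mRNA, so the circular RNAs were not measured and neither knockdown could be checked here. The labels do not state whether the 2 libraries of a group stem from independent cultures. The p-values therefore reflect variation between libraries that could be technical only.

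Groups were taken from the library identifiers as the authors' deposited tables name them, because the titles of the sample records name 4 of the 6 libraries differently. The genotype field of those records in turn gives the 2 knockdowns the reverse of the names in the titles. Each normalized column of the deposited tables matched 1 count column up to a single factor. Grouped by record titles, edgeR called 0 of 22331 genes and 0 of the 8 members in each of the 3 comparisons. In that grouping 350, 441 and 471 genes had an unadjusted p under 0.05 for siRAB3IP against control, siCAMSAP1 against control and siRAB3IP against siCAMSAP1, and DESeq2 called 0, 1 and 0 genes. Every edgeR call below therefore depends on the names in the deposited tables, as do many of the directions.

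Intermediate filaments are rope-like cytoskeletal polymers. Keratins assemble only as pairs of a type II chain, such as KRT8, with a type I chain, such as KRT18 or KRT19, and a chain without its partner is usually degraded. KRT8, KRT18 and KRT19 are the keratins of simple, single-layered epithelia, and KRT10 is a type I keratin of differentiating epidermis. Vimentin assembles with itself and is the filament protein of mesenchymal cells and of many cultured lines. Cadherins join neighbouring cells through calcium-dependent contacts between like molecules: CDH1 is typical of epithelia and CDH2 of neural and mesenchymal tissue. EPCAM is a surface glycoprotein of epithelial and progenitor cells. Loss of CDH1, EPCAM and keratins together with gain of VIM and CDH2 is the textbook marker pattern of epithelial-mesenchymal transition.

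The filament members share the end of their rod domain, a conserved stretch that takes part in filament assembly. Coding sequences of 69 bases from that place in the 3 type I keratins are shown to make the family relation visible, with the 21 bases of the conserved helix termination motif in capitals (GENCODE 29 transcripts, GRCh38, coding strand 5′ to 3′).
KRT18: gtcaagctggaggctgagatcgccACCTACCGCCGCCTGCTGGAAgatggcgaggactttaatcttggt
KRT19: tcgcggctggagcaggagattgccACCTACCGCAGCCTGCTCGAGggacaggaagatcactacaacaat
KRT10: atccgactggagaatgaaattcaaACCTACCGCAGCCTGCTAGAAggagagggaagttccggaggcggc
In these stretches KRT19 and KRT10 were identical at 62.3% of bases, KRT18 and KRT19 at 57.97%, and KRT18 and KRT10 at 55.1%. On the GRCh38 build, the KRT18 stretch lies on the plus strand of chromosome 12 from 52952281 to 52952728 across exons 6 and 7. The KRT19 stretch is on the minus strand of chromosome 17 from 41523767 to 41523835 within exon 6. For KRT10 it is on the minus strand of chromosome 17 from 40819149 to 40819572 across exons 6 and 7.

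The classical cadherins share a short adhesion motif in the first extracellular repeat, and its 9 bases are in capitals in the following stretches of 57 coding bases (same source and build).
CDH1: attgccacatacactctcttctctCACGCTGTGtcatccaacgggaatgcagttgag
CDH2: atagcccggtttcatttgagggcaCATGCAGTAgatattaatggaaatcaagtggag
These 2 stretches were identical at 49.1% of bases. On GRCh38 the CDH1 stretch lies on the plus strand of chromosome 16 from 68808834 to 68810238 across exons 5 and 6, and the CDH2 stretch on the minus strand of chromosome 18 from 28005952 to 28009731 across exons 5 and 6.

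Fragments assigned to genes ranged from 37379217 to 39637733 per library, and the 10 most abundant genes held 13.0% to 14.9% of them. At that depth a count of 3 stands for 0.0757 to 0.0803 CPM (the counts-per-million scale, relative to the library total). Markers of the labelled line were partly present. Of 6 matched genes, ENO2, EYA1, SIX2 and INA passed the filter at means of 27.0, 6.16, 2.76 and 2.74 CPM, while PAX2 and NEFM did not, at 0.0900 and 0.167 CPM. These levels were not the same in all groups. Of the 4 tested, 2 (ENO2 and INA) were called higher and 0 lower in siRAB3IP, beside 6.39% and 5.24% of all tested genes. ENO2 went from 24.2 ± 3.55 to 34.9 ± 0.202 CPM (log2 0.59 ± 0.10, edgeR, adjusted p = 0.00304).

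Ordered by fragments per kilobase of exon scaled to the library total (FPKM), which compares levels between genes, the control libraries held much keratin and vimentin mRNA and almost no CDH1 or EPCAM. KRT8 had 179 ± 9.01 FPKM (SD, n = 2), and KRT18 had 137 ± 5.26. These levels stand at the 99.1 and 98.9 percentiles of the tested genes. VIM followed with 48.6 ± 7.38 FPKM, KRT19 with 24.5 ± 2.6, CDH2 with 16.2 ± 1.77 and KRT10 with 6.94 ± 0.392. EPCAM had 0.0985 ± 0.0260 FPKM and CDH1 had 0.0434 ± 0.0430, at the 3.85 and 1.02 percentiles. No neighbours in this order overlapped within their SD except EPCAM and CDH1. The line thus held a simple-epithelial keratin pair beside vimentin and N-cadherin, with E-cadherin and EPCAM mRNA near the limit of counting.

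In siRAB3IP the 3 simple-epithelial keratins were lower than in control, by 1.48-fold for KRT8, 1.65-fold for KRT18 and 1.49-fold for KRT19. The other 5 members did not pass the test. Over all genes, 11.6% of the 22331 tested were called by edgeR's quasi-likelihood test at a Benjamini-Hochberg adjusted p under 0.05, 6.39% higher and 5.24% lower. Of the 8 members 3 were called, 0 higher and 3 lower. The members were chosen with earlier results of these data known, so that share is no test of the set. KRT8 and KRT18 also share 525 exonic bases, so their counts are not fully separate. The groups did not overlap in CPM for 4 of 8, beside 54.6% of all tested genes, so that count does not set the members apart. The median log2 fold change was 0.03 over the members and -0.01 over all tested genes.

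**Figure D1:**
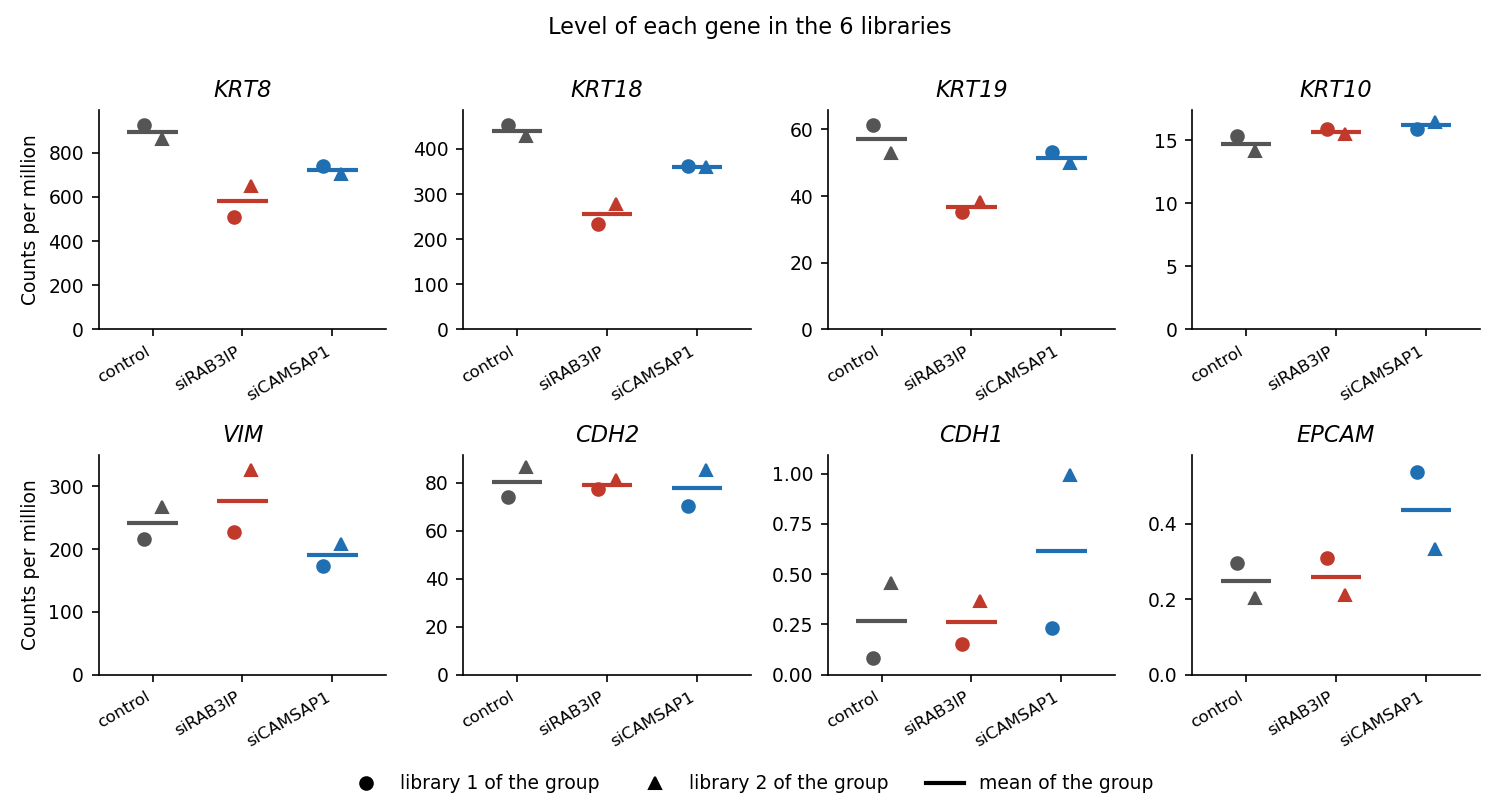
Level of each gene in CPM (vertical axes, linear from 0) in the 2 control, 2 siRAB3IP and 2 siCAMSAP1 libraries, with circles for library 1, triangles for library 2 and a bar for the group mean. KRT8, KRT18 and KRT19 sit lowest in both siRAB3IP libraries, VIM is higher in library 2 than in library 1 of every group, and CDH1 and EPCAM stay under 1 CPM.

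KRT8, the type II partner of the pair (hg19 chromosome 12, 53290977 to 53343738, minus strand), had 927 and 863 CPM in the control libraries. Its level was 511 and 650 CPM in siRAB3IP and 741 and 705 CPM in siCAMSAP1. Both siRAB3IP libraries lay below both siCAMSAP1 libraries, which lay below both controls. The log2 fold change was -0.56 ± 0.11 (SE) in siRAB3IP (edgeR, adjusted p = 0.00519). Without siRAB3IP replicate 1, the lower of the pair, it was -0.41 and no longer called, in a fit with a single siRAB3IP library. That remaining library, at 650 CPM, still lay below both controls. In siCAMSAP1 the log2 fold change was -0.28 ± 0.11, which was not called (edgeR, adjusted p = 0.304).

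KRT18, the type I partner (hg19 chromosome 12, 53342655 to 53346685, plus strand), lies next to KRT8. The control libraries had 453 and 429 CPM, those of siRAB3IP 233 and 278 CPM, and those of siCAMSAP1 362 and 359 CPM. The groups kept the same order as for KRT8, again without overlap. In siRAB3IP the log2 fold change was -0.72 ± 0.09 (edgeR, adjusted p = 0.000541), and it stayed between -0.84 and -0.61 when any 1 library was left out, called each time. In siCAMSAP1 it was -0.26 ± 0.09 and not called (edgeR, adjusted p = 0.254).

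KRT19, a smaller type I keratin that lacks a tail domain (hg19 chromosome 17, 39679869 to 39684560, minus strand), had 61.5 and 52.9 CPM in control. Its siRAB3IP libraries had 35.1 and 38.3 CPM, and its siCAMSAP1 libraries 53.1 and 49.9 CPM. The siRAB3IP libraries stood below the other 4, and siCAMSAP1 overlapped control. The log2 fold change was -0.58 ± 0.10 in siRAB3IP (edgeR, adjusted p = 0.00345), with a range of -0.71 to -0.43 when 1 library was left out, called each time. For siCAMSAP1 it was -0.12 ± 0.10 (edgeR, adjusted p = 0.703).

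KRT10, the type I keratin of differentiating epidermis (hg19 chromosome 17, 38974369 to 38978847, minus strand), was not called in either knockdown. Control libraries had 15.3 and 14.2 CPM, siRAB3IP 15.9 and 15.5 CPM, and siCAMSAP1 15.9 and 16.5 CPM. All 4 knockdown libraries lay above both controls by small steps. Its log2 fold changes of 0.15 ± 0.11 and 0.17 ± 0.11 had adjusted p = 0.418 and 0.609 (edgeR).

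VIM (hg19 chromosome 10, 17270258 to 17279592, plus strand) was not called against control in either knockdown by edgeR without a replicate block. With a block for the replicate number, edgeR called it in both, higher in siRAB3IP and lower in siCAMSAP1. No label says that the replicate numbers pair libraries, so the fit without a block is given here. The control libraries had 216 and 267 CPM, siRAB3IP 227 and 326 CPM, and siCAMSAP1 173 and 209 CPM. In each group library 2 exceeded library 1, and siRAB3IP overlapped control while siCAMSAP1 lay below it. The log2 fold changes were 0.26 ± 0.14 (edgeR, adjusted p = 0.283) and -0.31 ± 0.14 (edgeR, adjusted p = 0.418).

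CDH2 (hg19 chromosome 18, 25530930 to 25757410, minus strand) kept overlapping levels in the 3 groups. It had 74.2 and 86.6 CPM in control, 77.3 and 81.2 CPM in siRAB3IP, and 70.5 and 85.4 CPM in siCAMSAP1. The log2 fold changes were 0.04 ± 0.10 and -0.01 ± 0.10 (edgeR, adjusted p = 0.828 and 0.979).

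CDH1 (hg19 chromosome 16, 68771128 to 68869451, plus strand) was counted in few fragments, 3 and 18 in control, 6 and 14 in siRAB3IP, and 9 and 39 in siCAMSAP1. Library 2 held more of them than library 1 in every group. The log2 fold changes were 0.01 ± 0.85 and 1.21 ± 0.75 (edgeR, adjusted p = 0.996 and 0.586). With standard errors this wide, a change of the size seen in the keratins was not detectable. EPCAM (hg19 chromosome 2, 47572297 to 47614740, plus strand) had 11 and 8 fragments in control, 12 and 8 in siRAB3IP, and 21 and 13 in siCAMSAP1. The siCAMSAP1 libraries were the highest, yet the log2 fold change of 0.84 ± 0.54 was not called (edgeR, adjusted p = 0.597), nor was that of 0.13 ± 0.57 in siRAB3IP (adjusted p = 0.922).

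In siCAMSAP1, 0 of the 8 members were called against control, beside 0.940% of all tested genes (0.448% higher and 0.493% lower). Unadjusted p was under 0.05 for KRT8 (0.0214) and KRT18 (0.0141) by edgeR, and DESeq2 also called 0 members. Groups did not overlap for 5 of 8, beside 41.4% of all tested genes, and the median log2 fold change was -0.07 over the members and 0.00084 over all tested genes. The authors' deposited table for siCAMSAP1 lists KRT8 at a log2 fold change of -0.28 with an adjusted p of 0.000833. The same authors' deposited table gives -0.26 for KRT18 (adjusted p = 0.00668) and -0.29 for VIM (adjusted p = 0.00342). For siRAB3IP, the authors' deposited table lists KRT18 at -0.72 (adjusted p = 0.00181), KRT19 at -0.57 (adjusted p = 0.000219) and VIM at 0.25 (adjusted p = 0.0352). The sizes differed from those of edgeR by less than the standard errors, while the calls for KRT8, KRT18 and VIM in siCAMSAP1 and for VIM in siRAB3IP were not made by edgeR without a replicate block. KRT8, which edgeR called in siRAB3IP, was not among the 2192 genes of the authors' deposited table for siRAB3IP. The name of that table points to a list of significant genes only, and every gene taken from it here had an adjusted p under 0.05. DESeq2 with a replicate block on the libraries compared did not call KRT8 in siRAB3IP either.

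**Figure D2:**
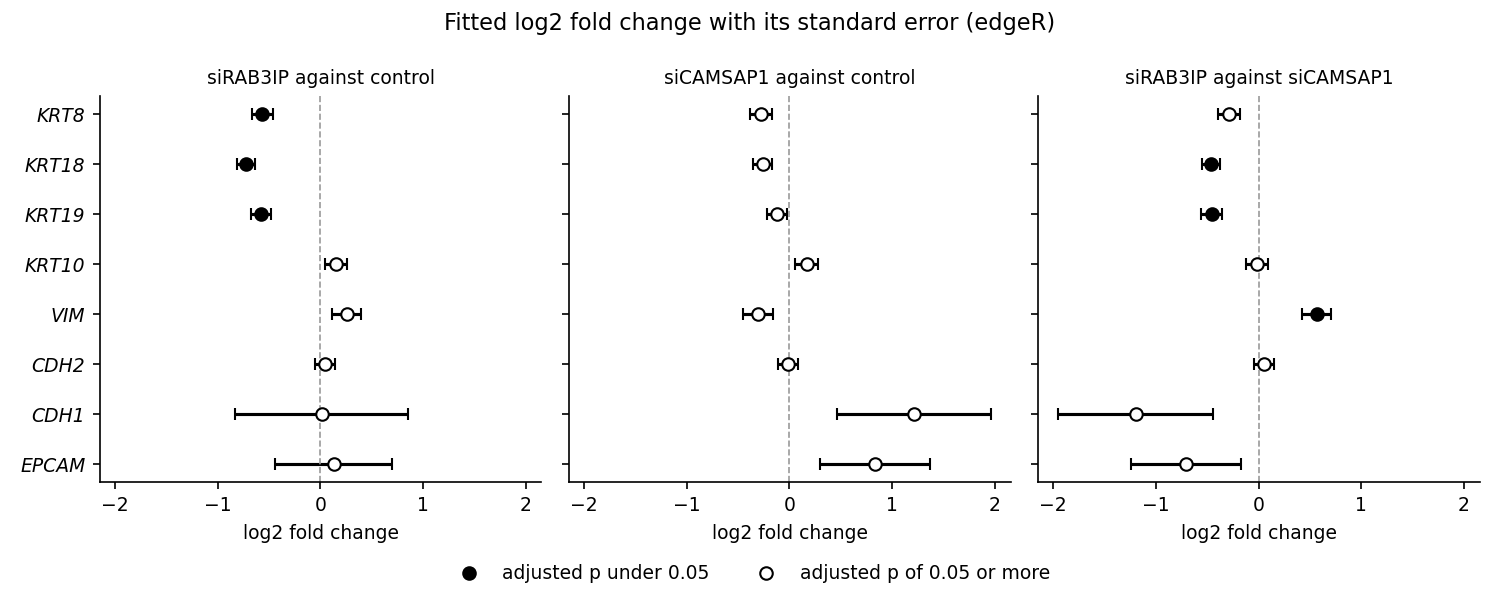
Fitted log2 fold change of each gene (horizontal axes, 0 marks no change) with its standard error in the 3 comparisons, filled where the adjusted p of edgeR was under 0.05. The filled points are KRT8, KRT18 and KRT19 in siRAB3IP against control, and KRT18, KRT19 and VIM in siRAB3IP against siCAMSAP1, and the bars of CDH1 and EPCAM are the widest.

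Set against each other, the knockdowns differed in KRT18, KRT19 and VIM. The test of that difference called 3 of the 8 members, beside 8.85% of all tested genes (4.89% higher and 3.96% lower in siRAB3IP). Both comparisons with control share the control libraries, and this contrast does not use their levels. Groups did not overlap for 5 of 8 members, beside 53.2% of all tested genes, and the median log2 difference was -0.37 over the members and -0.01 over all tested genes. KRT18 was lower in siRAB3IP by 0.46 ± 0.09 on the log2 scale, 1.38-fold (edgeR, adjusted p = 0.00807). Leaving out siRAB3IP replicate 1 gave -0.35 (adjusted p = 0.0927) and leaving out siCAMSAP1 replicate 1 gave -0.44 (adjusted p = 0.051), and both ended the call. KRT19 differed by -0.46 ± 0.10 (edgeR, adjusted p = 0.0141). Its call ended without siRAB3IP replicate 1 (-0.41, adjusted p = 0.107), siRAB3IP replicate 2 (-0.51, adjusted p = 0.0663) or siCAMSAP1 replicate 1 (-0.40, adjusted p = 0.103). VIM was 1.48-fold higher in siRAB3IP than in siCAMSAP1, at a log2 difference of 0.56 ± 0.14 (edgeR, adjusted p = 0.0279). This call was made in 12 of 19 alternative settings, among them the edgeR and DESeq2 fits with a replicate block. Settings that ended it included DESeq2 without a block (adjusted p = 0.112). It also ended without siRAB3IP replicate 2 (log2 difference 0.29) or siCAMSAP1 replicate 1 (0.45). KRT8 differed by -0.29 ± 0.11 and was not called (edgeR, adjusted p = 0.118).

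Per kilobase, the ratio of the partners KRT18 and KRT8 ranged from 0.666 to 0.792 over the libraries. KRT18 stood at 0.760 and 0.773 of KRT8 in the control libraries, 0.710 and 0.666 in siRAB3IP, and 0.759 and 0.792 in siCAMSAP1. Both siRAB3IP ratios were the lowest. Adding the other simple-epithelial type I chain, KRT18 plus KRT19 came to 0.902 and 0.904 of KRT8 in control, 0.857 and 0.792 in siRAB3IP, and 0.913 and 0.944 in siCAMSAP1. The ratio of KRT8 to VIM was 4.27 and 3.20 in control, 2.24 and 1.98 in siRAB3IP, and 4.26 and 3.35 in siCAMSAP1, so siRAB3IP did not overlap the other groups. With 2 libraries against 2, an exact two-sided permutation test cannot give a p below 0.333, so these ratios are given without a test. CDH2 exceeded CDH1 107-fold to 1149-fold across libraries, a range set by the 3 to 39 fragments of CDH1.

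**Figure D3:**
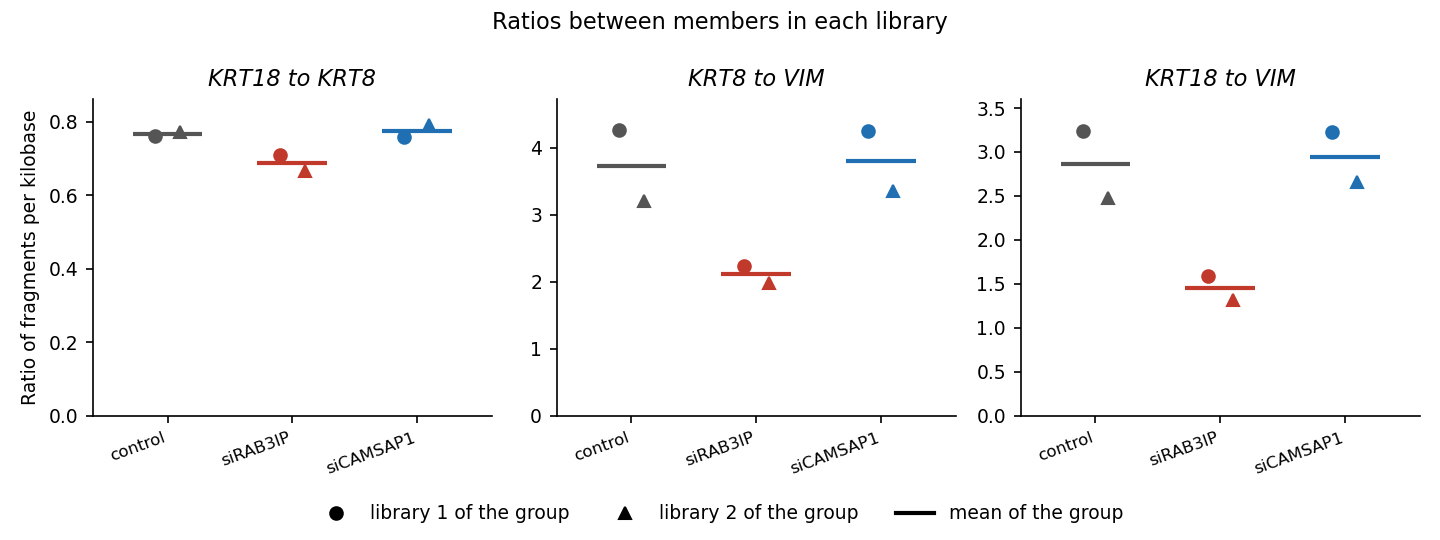
Ratio of fragments per kilobase between members (vertical axes, linear from 0) in each library, for KRT18 to KRT8, KRT8 to VIM and KRT18 to VIM, with bars for the group means. The siRAB3IP libraries lie below the other 4 in each panel, at 1.98 and 2.24 for KRT8 to VIM against 3.20 or more elsewhere.

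How the fragments were counted bears on several members. KRT8 and KRT18 lie head to head on opposite strands and share 525 exonic bases in the annotation of the count file, 10.5% of the exonic length of KRT8 and 16.3% of that of KRT18. Fragments were counted without strand, so those from the shared bases cannot be assigned to one gene, and both levels are uncertain to that extent. VIM shares 641 exonic bases (12.9%) with VIM-AS1, which had 622 fragments in all 6 libraries together, and KRT10 shares 56 bases (2.64%) with KRT10-AS1. Simple-epithelial keratins also have many processed pseudogenes. Of 51 named after KRT8, 45 had fragments, and their total of 6217 was 3.65% of the 170132 of KRT8, led by KRT8P3 (1881) and KRT8P12 (892). Of 67 named after KRT18, 57 had fragments, and their 2149 were 2.63% of the 81829 of KRT18, led by KRT18P31 (635) and KRT18P59 (198). KRT19 had 5 such pseudogenes with 16 fragments, 0.142% of its own 11255, 12 of them in KRT19P2 and 3 in KRT19P1. In local alignment KRT8P12 was 86.3% identical to KRT8 over 1461 bases and KRT18P31 90.3% identical to KRT18 over 1295 bases. Summing each member with its pseudogenes left the same members called in all 3 comparisons.

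The list counts below stand beside the shares over all tested genes and were not tested against them. Those shares were 6.39% higher and 5.24% lower in siRAB3IP, and 0.448% higher and 0.493% lower in siCAMSAP1. The other keratins were scarce. Of 34 listed, 5 passed the filter, and 2 rose in siRAB3IP, 1 rose in siCAMSAP1 and 0 fell in either. KRT17, a type I keratin of basal and stressed epithelia, had 8.29 and 8.25 CPM in control, 13.3 and 23.5 CPM in siRAB3IP, and 30.9 and 53.6 CPM in siCAMSAP1. Every knockdown library lay above both controls, and every siCAMSAP1 library above both siRAB3IP libraries. The log2 fold changes were 1.21 ± 0.26 in siRAB3IP and 2.38 ± 0.26 in siCAMSAP1 (edgeR, adjusted p = 0.0107 and 0.00119). The call in siRAB3IP ended without siRAB3IP replicate 2, and both ended with robust estimation of the spread. KRT17 shares 1021 exonic bases (40.2%) with JUP on the same strand, which leaves its level uncertain. KRT80, named although its mean of 3.45 CPM is under the 5 CPM set for naming genes, was the second rise in siRAB3IP (log2 0.68 ± 0.19), and its call ended without either control library.

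Among 11 other filament genes that passed the filter, lamins included, 2 rose and 0 fell in siRAB3IP and 0 were called in siCAMSAP1, with medians of -0.20 and 0.07. SYNM, which encodes synemin, a partner of vimentin in mixed filaments, had 25.5 and 26.4 CPM in control, 41.3 and 46.5 CPM in siRAB3IP, and 30.9 and 33.6 CPM in siCAMSAP1. The siRAB3IP libraries were the highest and the siCAMSAP1 libraries stood between. Its log2 fold change in siRAB3IP was 0.82 ± 0.09 (edgeR, adjusted p = 0.000255), called without each library in turn. INA, a neuronal filament gene below 5 CPM, rose by 1.52 ± 0.20 on the log2 scale. The most abundant gene of the list was the lamin LMNB2 at 58.7 FPKM. Of 12 filament linkers and regulators, FLG (filaggrin, log2 0.56 ± 0.14) and TRIM29 (1.21 ± 0.28) rose and PPL (periplakin, -0.58 ± 0.17) fell in siRAB3IP, each call ending when 1 or another library was left out. The medians of the linkers were 0.09 and 0.14, and 0 were called in siCAMSAP1.

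Of 7 other cadherins tested, CDH24 rose and CDH3 fell in siRAB3IP, and 0 were called in siCAMSAP1. CDH3, which encodes P-cadherin of basal epithelia, had 12.7 and 13.2 CPM in control, 9.67 and 6.85 CPM in siRAB3IP, and 18.1 and 14.7 CPM in siCAMSAP1. The siRAB3IP libraries were the lowest and those of siCAMSAP1 the highest. Its log2 difference between the knockdowns was -0.95 ± 0.16 (edgeR, adjusted p = 0.00373), called without each library in turn, while the call against control (-0.58 ± 0.16) ended without control replicate 1, control replicate 2 or siRAB3IP replicate 2. CDH24 went from 20.8 ± 0.0747 CPM to 29.1 ± 2.80 CPM in siRAB3IP, and its call ended without siRAB3IP replicate 2. Of 18 adherens junction partners, LIMA1 and NECTIN4 rose in siRAB3IP, and in siCAMSAP1 LIMA1 rose and NECTIN4 fell. LIMA1 encodes an actin-bundling protein linked to the cadherin complex, and NECTIN4 a nectin. All these calls against control ended without control replicate 1 or control replicate 2. The catenin CTNNB1, the most abundant of the list at 82.1 FPKM, was not called by edgeR. In siRAB3IP its log2 fold change was -0.25 ± 0.08 (edgeR, adjusted p = 0.0563), and the authors' deposited table lists it at -0.24 (adjusted p = 0.0181). The median of the partners was 0.0047 in siRAB3IP and -0.02 in siCAMSAP1.

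Desmosomes anchor keratin filaments at the cell surface. Of 10 desmosomal genes tested, PERP and DSC3 rose in siRAB3IP and 0 were called in siCAMSAP1, with medians of 0.03 and 0.13. PERP, a membrane protein of desmosomes, had 162 and 157 CPM in control, 203 and 205 CPM in siRAB3IP, and 174 and 178 CPM in siCAMSAP1. The groups did not overlap. Its log2 fold change in siRAB3IP was 0.42 ± 0.08 (edgeR, adjusted p = 0.00421), called without each library in turn. DSC3, a desmosomal cadherin, rose by 0.33 ± 0.09, and that call ended without either control or either siRAB3IP library. The plaque proteins PKP3 (-0.57 ± 0.11) and PKP2 (-0.35 ± 0.08) were lower in siRAB3IP than in siCAMSAP1, and both calls ended without siRAB3IP replicate 1 or siCAMSAP1 replicate 1.

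Several tight junction and epithelial genes rose in the siRAB3IP libraries, in which the simple-epithelial keratins fell. Of 27 tested, 5 rose and 0 fell in siRAB3IP, beside 6.39% higher and 5.24% lower over all tested genes. In siCAMSAP1 2 rose and 0 fell, beside 0.448% higher and 0.493% lower. The medians were 0.11 and 0.17. Leaving out 1 library gave 2 to 4 rises and 0 to 1 falls in siRAB3IP. CLDN12, a claudin, had 38.3 and 39.9 CPM in control, 57.3 and 64.8 CPM in siRAB3IP, and 36.5 and 39.2 CPM in siCAMSAP1. Only the siRAB3IP libraries stood apart. Its log2 fold change was 0.70 ± 0.09 (edgeR, adjusted p = 0.000441). MARVELD2, which encodes tricellulin of contacts between several cells, rose by 0.65 ± 0.12, and both calls held without each library in turn. AP1M2, an epithelial clathrin adaptor subunit, had 13.3 ± 1.52 CPM in control, 17.8 ± 2.23 in siRAB3IP and 23.9 ± 2.01 in siCAMSAP1. Its rise was called in both knockdowns, and in siRAB3IP the call ended without control replicate 2 or siRAB3IP replicate 2. F11R, the junctional adhesion molecule A, rose by 0.29 ± 0.08 and 0.46 ± 0.08, and ELF3, an epithelial transcription factor below 5 CPM, by 0.79 ± 0.23 in siRAB3IP. These calls of F11R and ELF3 ended without control replicate 2.

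**Figure D4:**
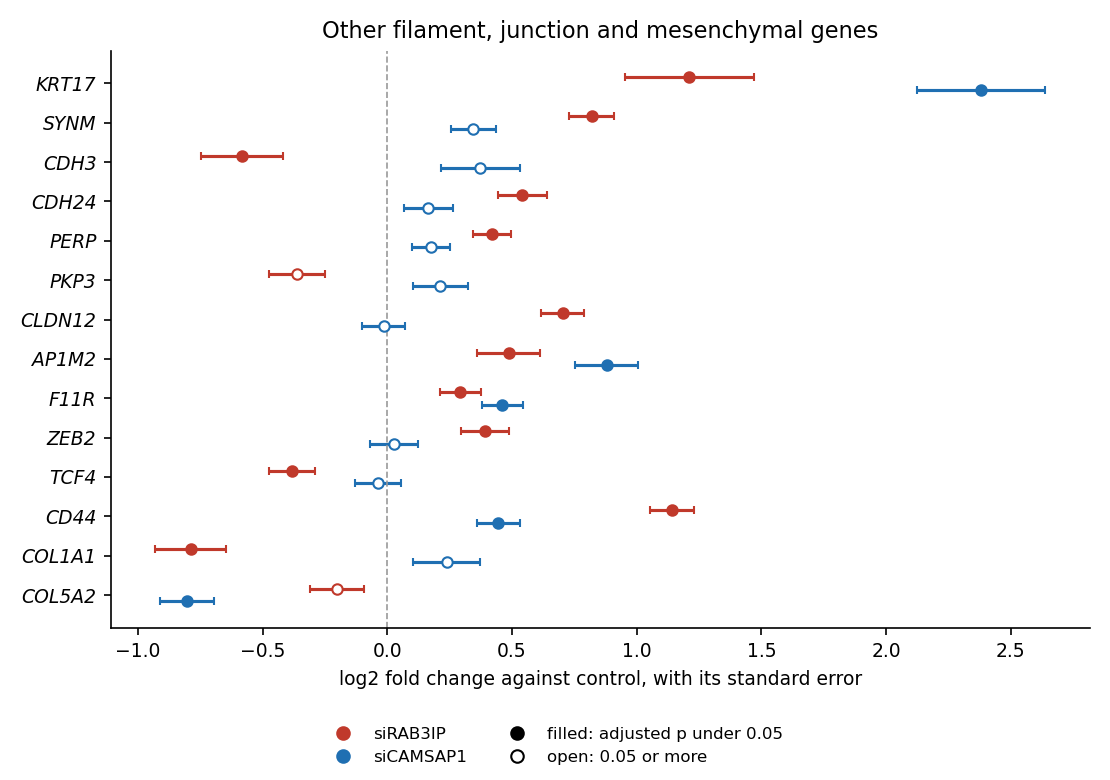
Log2 fold change against control with its standard error (horizontal axis) for 14 called genes of the filament, junction and mesenchymal lists, in red for siRAB3IP and in blue for siCAMSAP1, filled where the adjusted p of edgeR was under 0.05. KRT17 lies farthest to the right in both knockdowns (1.21 and 2.38), and CD44 follows in siRAB3IP (1.14).

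Transcription factors of epithelial-mesenchymal transition were split. Of 17 tested, edgeR called 2 higher (ZEB2 and SNAI2) and 2 lower (SOX9 and TCF4) in siRAB3IP, and 0 in siCAMSAP1, with medians of -0.10 and -0.04. The authors' deposited table for siCAMSAP1 lists ZEB1 at a log2 fold change of -0.32 (adjusted p = 0.0142) and LEF1 at -0.49 (adjusted p = 0.0125). ZEB2, a repressor of CDH1, had 27.6 and 31.1 CPM in control and 36.7 and 36.97 CPM in siRAB3IP (log2 0.39 ± 0.10). SOX9 fell from 8.72 ± 0.116 to 5.65 ± 0.165 CPM, and TCF4 from 33.6 ± 3.95 to 24.7 ± 0.622 CPM. Each of these 4 calls ended when 1 or another library was left out, and the count ran from 0 to 2 rises and from 0 to 3 falls. The most abundant factor was TCF3 at 14.5 FPKM.

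Mesenchymal genes were split as well. Of 28 tested, 2 rose (CD44 and TGFBI) and 3 fell (COL1A1, MMP2 and S100A4) in siRAB3IP, and in siCAMSAP1 CD44 rose and COL5A2 fell, with medians of 0.07 and 0.06. CD44, the hyaluronan receptor, had 78.5 and 77.3 CPM in control, 176 and 154 CPM in siRAB3IP, and 103 and 105 CPM in siCAMSAP1. The 3 groups were fully separated. Its log2 fold change was 1.14 ± 0.09 in siRAB3IP (edgeR, adjusted p = 2.01e-05), called without each library in turn, and 0.45 ± 0.09 in siCAMSAP1 (adjusted p = 0.0333), where the call ended without either control or either siCAMSAP1 library. COL1A1, a fibrillar collagen chain, fell from 9.13 ± 0.562 to 5.06 ± 0.523 CPM in siRAB3IP. COL5A2, another fibrillar collagen chain, went from 34.1 ± 3.01 to 19.1 ± 2.98 CPM in siCAMSAP1 (log2 -0.80 ± 0.11). The calls of COL1A1 and COL5A2 held without each library in turn, and those of MMP2, S100A4 and TGFBI, all below 5 CPM, did not. Between the knockdowns, 4 of the 28 were called higher and 3 lower in siRAB3IP, beside 4.89% and 3.96% of all tested genes. Of those averaging 5 CPM or more, the largest differences were lower for COL1A1 (-1.03 ± 0.14) and AXL (-0.81 ± 0.15). They were higher for TNC (0.71 ± 0.17) and NCAM1 (0.70 ± 0.16). SPARC was the most abundant of the list at 27.8 FPKM.

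In siCAMSAP1, unadjusted p was under 0.05 for 12.1% of all tested genes. Of the lists with 0 calls by edgeR there, it was under 0.05 for 3 of 11 other filament genes, 3 of 12 linkers, 2 of 7 other cadherins, 2 of 10 desmosomal genes and 4 of 17 transcription factors. DESeq2 called 1 linker and 1 transcription factor among these. The authors' deposited table for siCAMSAP1 also lists the linker FAM83H, at a log2 fold change of 0.43 (adjusted p = 0.0145).

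Markers of other cell types were mostly low, and the highest was SFN at a mean of 23.4 CPM over the libraries. In bulk RNA, fewer cells of a type and less RNA per cell cannot be told apart. Of 10 blood-cell markers 3 passed the filter, with sums of 4.44 to 4.49 CPM in control, 4.75 to 4.92 in siRAB3IP and 5.04 to 6.10 in siCAMSAP1, and HBB was listed at 0. HBA2, an alpha globin, rose in siRAB3IP from 0.460 ± 0.258 to 1.19 ± 0.201 CPM, and its call ended without control replicate 2 or either siRAB3IP library. The 9 fibroblast markers, 6 of which passed, summed to 24.8 to 34.4 CPM in control, 20.1 to 27.6 in siRAB3IP and 22.3 to 31.3 in siCAMSAP1, and COL1A1 was the only one called. Of 6 endothelial markers 4 passed, with sums of 4.28 to 5.27, 6.21 to 8.90 and 4.89 to 5.08 CPM, VWF rose in siRAB3IP (3.33 ± 0.247 to 6.01 ± 1.71 CPM; not called without siRAB3IP replicate 2) and PECAM1 was listed at 0. Of 7 matched markers of stratified epithelium only SFN passed, the list summed to 18.6 to 24.02, 22.4 to 25.2 and 22.1 to 29.4 CPM, and 0 were called. The part of these genes in the keratin levels was not tested.

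Across the 6 libraries, the genes whose level followed a called member most closely were sought over 11777 genes averaging 5 CPM or more, by the root mean square difference of centred log2 CPM. TMEM187 was nearest to both KRT18 (0.0474) and KRT8 (0.0575). HOXA-AS2 and TKFC came next for KRT18, and CKMT2-AS1 and ERCC6L2-AS1 for KRT8. DGCR6L (0.0487), SSH3 and HSD17B7 were nearest to KRT19, and ZMAT3 (0.0552), ZNF528-AS1 and SH3YL1 to VIM. ZMAT3 had 46.5 and 63.2 CPM in control, 53.9 and 75.2 CPM in siRAB3IP, and 41.8 and 47.1 CPM in siCAMSAP1, with library 2 above library 1 in each group, as for VIM.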

How the data were processed

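Poly(A) TruSeq libraries of 6 HEK293 samples were used, 2 per group. Per the file headers, the authors counted fragments per gene with featureCounts 1.6.0, ignoring strand and keeping primary alignments in which both mates mapped. The submitters' processing notes name STAR, DESeq2 and hg19, with versions for STAR and DESeq2 not given in the sources used here. Normalized values in the deposited tables (signal) equal counts over a size factor set by the authors, and they served to match library names. The authors' log2 fold changes, standard errors and adjusted p-values come from the deposited tables, whose columns carry the names DESeq2 gives them. Of 63677 genes, 52181 had a symbol and 21724 no fragment. NEFL, LHX1 and LOR were not analysed here, and 1 further list gene and some sequence stretches are not reported.

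Counts were tested in R 4.3.3 by edgeR 4.0.16 (TMM, default filter, quasi-likelihood, 1 model over 3 groups, 3 residual degrees of freedom), with Benjamini-Hochberg adjustment at 0.05. Members and gene lists were chosen with earlier results of these data known. Genes named from lists were up to 4 called per list and comparison with a mean of at least 5 CPM, largest change first, plus the most abundant, and genes below 5 CPM were named after their values were seen, as were the 14 genes plotted. FPKM used exonic lengths of the count file. Alternatives were other scalings and filters, DESeq2 1.42.0, limma-voom (limma 3.58.1), a replicate block, sample-record groups, summed pseudogenes and leaving out each library. On simulated data with 5 draws, 17.6%, 83.6% and 99.1% of genes changed 1.25-fold, 1.5-fold and 2-fold were recovered for siRAB3IP (21686 genes) and 16.7%, 85.1% and 99.7% for siCAMSAP1 (21681 genes). Of the calls, 6.07% and 7.20% were of unchanged genes. The changed genes were drawn from those with a mean of at least 5 CPM, so these rates do not cover CDH1, EPCAM or other genes below that level. The simulated libraries carried no shift shared by replicate number. Python 3.11.15 with Biopython 1.88 and matplotlib 3.10.9 served for sequences and figures.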

Additional observations from a re-analysis of the deposited data

Results flagged for a closer look

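For 3 members the test of siRAB3IP against siCAMSAP1 itself passed the threshold. KRT18 was lower in siRAB3IP, with a log2 difference of -0.464. KRT19 was lower as well, with a log2 difference of -0.459. VIM was higher in siRAB3IP, with a log2 difference of 0.564.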

How the results depend on the processing

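With 2 libraries per group, 1 library often decided a count. Genes called ran from 1034 to 2491 for siRAB3IP against control, from 67 to 210 for siCAMSAP1 against control and from 620 to 2296 between the knockdowns when 1 library was left out. Members called ran from 2 to 3, stayed at 0, and ran from 0 to 3. The replicate numbers are those of the authors' deposited tables, and no label says that they pair libraries. Deviations of same-numbered libraries correlated at 0.45, 0.53 and 0.45 over 11784 genes (control with siRAB3IP, control with siCAMSAP1, siRAB3IP with siCAMSAP1), a hint from the data and not the design. With the replicate block edgeR called 5371, 1408 and 4630 genes and 4, 3 and 4 members. The added calls were KRT8, KRT18 and VIM in siCAMSAP1 (adjusted p = 0.0435, 0.0261 and 0.00521), VIM in siRAB3IP (0.00712) and KRT8 between the knockdowns (0.0139). DESeq2 with a replicate block on the libraries compared, added after seeing the data, called 520 genes and 3 members in siCAMSAP1 and VIM in siRAB3IP (adjusted p = 0.0377), and did not call KRT8 in siRAB3IP (-0.56, adjusted p = 0.0978). For siCAMSAP1 against control, 560 genes were called with no filter on low counts, 382 by DESeq2 and 328 by DESeq2 on the libraries compared. Robust estimation of the spread, also added, ended the call of VIM between the knockdowns (adjusted p = 0.0641), as did a mean of at least 5 CPM (adjusted p = 0.05001) and DESeq2 on the libraries compared (adjusted p = 0.178).

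With groups by sample records, 0 genes and 0 members were called in all 3 comparisons. For siRAB3IP against control the log2 fold changes there were -0.062 for VIM, 0.11 for KRT8, 0.16 for KRT18, -0.10 for KRT10 and 0.093 for KRT19. For siCAMSAP1 against control EPCAM was at -0.17, VIM at 0.26 and CDH2 at 0.12. Between the knockdowns EPCAM was at 0.42, VIM at -0.32, KRT8 at 0.21, KRT18 at 0.28, KRT19 at 0.23 and CDH2 at -0.12. All of these have the opposite sign to the values by table names. Of 66 calls of list genes, 50 changed sign in that grouping and 0 were called, 0 changed sign in any other setting, and 18 held without each library in turn.

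Some uncalled values crossed 0 when 1 library was left out, and the cause was not tested. Against control, siRAB3IP ranged from -0.72 to 1.69 for CDH1 (-0.017 with upper-quartile scaling), -0.032 to 0.13 for CDH2, -0.19 to 0.45 for EPCAM and -0.011 to 0.49 for VIM. In siCAMSAP1 the ranges were -0.25 to 0.028 for KRT19, -0.15 to 0.11 for CDH2 and -0.17 to 2.88 for CDH1. Between the knockdowns they were -0.046 to 0.018 for KRT10, -0.060 to 0.19 for CDH2 and -1.93 to 0.19 for CDH1. CDH1 and EPCAM were counted in only 3 to 39 fragments per library.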
